A study of Rattus norvegicus with 20 samples.

Results

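The inflammatory genes *Il6*, *Il1b*, *Ccl2*, *Lcn2*, *Icam1*, *Vcam1*, *S100a8*, *S100a9*, *Ptgs2* and *Nfkbia* were followed in the left ventricle (LV) and brain of rats with stress cardiomyopathy (SCM). The set was chosen by a list of 10 Ensembl rat gene identifiers, and all 10 were found among the 24160 features of the count table. The rule itself uses no measured value. The identifiers are ENSRNOG00000010278 (*Il6*), ENSRNOG00000004649 (*Il1b*), ENSRNOG00000007159 (*Ccl2*), ENSRNOG00000013973 (*Lcn2*), ENSRNOG00000020679 (*Icam1*), ENSRNOG00000014333 (*Vcam1*), ENSRNOG00000011557 (*S100a8*), ENSRNOG00000011483 (*S100a9*), ENSRNOG00000002525 (*Ptgs2*) and ENSRNOG00000007390 (*Nfkbia*). Gene symbols were taken from the list, because the annotation table used here carries no Ensembl identifiers against which they could be checked. RNA was sequenced from 5 control and 5 SCM rats, and each rat gave 1 LV library and 1 brain library, so the 4 groups (control LV, SCM LV, control brain, SCM brain) hold 5 libraries each. All animals were male Sprague-Dawley rats of 250 to 300 g. SCM was induced by immobilization stress of 6 hours over 7 days, and the control rats are described only as normal controls. Neither the age, the brain region nor the interval between the last immobilization and sampling is given in the sources used here, and both tissues are mixtures of cells in which fewer cells of a type and less RNA per cell cannot be told apart. The same replicate number in the 2 conditions belongs to different rats.

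These genes belong to the early inflammatory response. Danger signals and cytokines release the transcription factor NF-kB from its inhibitor IκBα, the product of *Nfkbia*, and NF-kB then switches on cytokines, chemokines, adhesion molecules and *Nfkbia* itself, which shuts the signal off again. *Il1b* and *Il6* encode the cytokines interleukin-1β and interleukin-6, and *Ccl2* encodes the chemokine that draws monocytes into tissue. *Icam1* and *Vcam1* are displayed on activated endothelium and hold passing leukocytes. *S100a8* and *S100a9* encode the 2 subunits of calprotectin, the main soluble protein of neutrophils. *Lcn2* encodes lipocalin-2, an iron-siderophore binding protein of the acute phase that is made by neutrophils and by stressed parenchymal cells. *Ptgs2* encodes the inducible cyclooxygenase of prostaglandin synthesis, which neurons of the forebrain also make without inflammation.

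Sequence upstream of the transcription start was examined because several of these genes are textbook targets of NF-kB. Upstream sequences from RefSeq were matched to 8 of the 10 genes, the others being *Ccl2* and *S100a8*. Those shown are the sequences of the 3 genes nearest to the threshold in the LV comparison and of the NF-kB inhibitor gene. Each line gives the 250 bases before the start on the gene's own strand, from 5′ to 3′, and capitals mark a match to the NF-kB consensus or to the C/EBP-type motif TTGCNNAA. Coordinates are those of the GRCr8 build, whereas the reads were mapped to mRatBN7.2.
Il1b, chr3:137036582-137036831, minus strand: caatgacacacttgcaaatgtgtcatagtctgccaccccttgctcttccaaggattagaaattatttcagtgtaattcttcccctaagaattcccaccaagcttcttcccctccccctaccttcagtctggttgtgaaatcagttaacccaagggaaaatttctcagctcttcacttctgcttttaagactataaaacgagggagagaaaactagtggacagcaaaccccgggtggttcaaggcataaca
Ptgs2, chr13:64713813-64714062, plus strand: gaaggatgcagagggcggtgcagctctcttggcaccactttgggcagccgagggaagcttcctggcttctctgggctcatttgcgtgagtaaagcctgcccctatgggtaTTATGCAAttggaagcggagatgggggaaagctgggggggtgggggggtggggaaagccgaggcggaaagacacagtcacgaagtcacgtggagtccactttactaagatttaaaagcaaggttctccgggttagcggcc
Lcn2, chr3:36081781-36082030, minus strand: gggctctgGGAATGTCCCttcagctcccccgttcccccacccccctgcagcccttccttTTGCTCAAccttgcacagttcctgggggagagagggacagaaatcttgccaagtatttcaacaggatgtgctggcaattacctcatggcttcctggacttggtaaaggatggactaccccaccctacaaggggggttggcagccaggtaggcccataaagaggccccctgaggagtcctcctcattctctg
Nfkbia, chr6:78597073-78597322, minus strand: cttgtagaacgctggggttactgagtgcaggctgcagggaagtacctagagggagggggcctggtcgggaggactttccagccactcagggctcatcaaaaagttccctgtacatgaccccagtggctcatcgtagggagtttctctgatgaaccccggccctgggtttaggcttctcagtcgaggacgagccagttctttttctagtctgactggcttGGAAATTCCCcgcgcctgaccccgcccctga
With both strands searched, the NF-kB consensus occurred in 4 of the 8 sequences (*Il6*, *Lcn2*, *Vcam1* and *Nfkbia*), compared with 6.33% of all 33469 upstream sequences of this length. TTGCNNAA occurred in 3 of the 8 (*Il6*, *Lcn2* and *Ptgs2*), compared with 9.22% of all. The cyclic AMP response element TGACGTCA was present only in *Il6* among the 8 and in 1.59% of all. Among the sequences shown, only that of *Lcn2* held both the NF-kB consensus and TTGCNNAA, at bases 9 to 18 and 60 to 67, without overlap. A match describes letters and not a bound site, and the upstream sequence of *Il1b* matched neither of the motifs in capitals.

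Total counts ranged from 22386526 to 36251990 per library, so that a floor of 3 counts amounted to between 0.0683 and 0.164 CPM. CPM are counts scaled to a common library size, here by TMM over all 20 libraries. Libraries of the same tissue correlated with r of at least 0.969 and libraries of different tissues with r of at most 0.638. The LV of control rat 5 had the lowest mean correlation with its own group, 0.976, and values that moved most with it are given below without it as well. The identifiers could not be linked to symbols beyond the 10 genes, so the purity of the LV and brain samples was not checked against marker genes, and no leukocyte marker can be set beside the results.

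**Figure D1:**
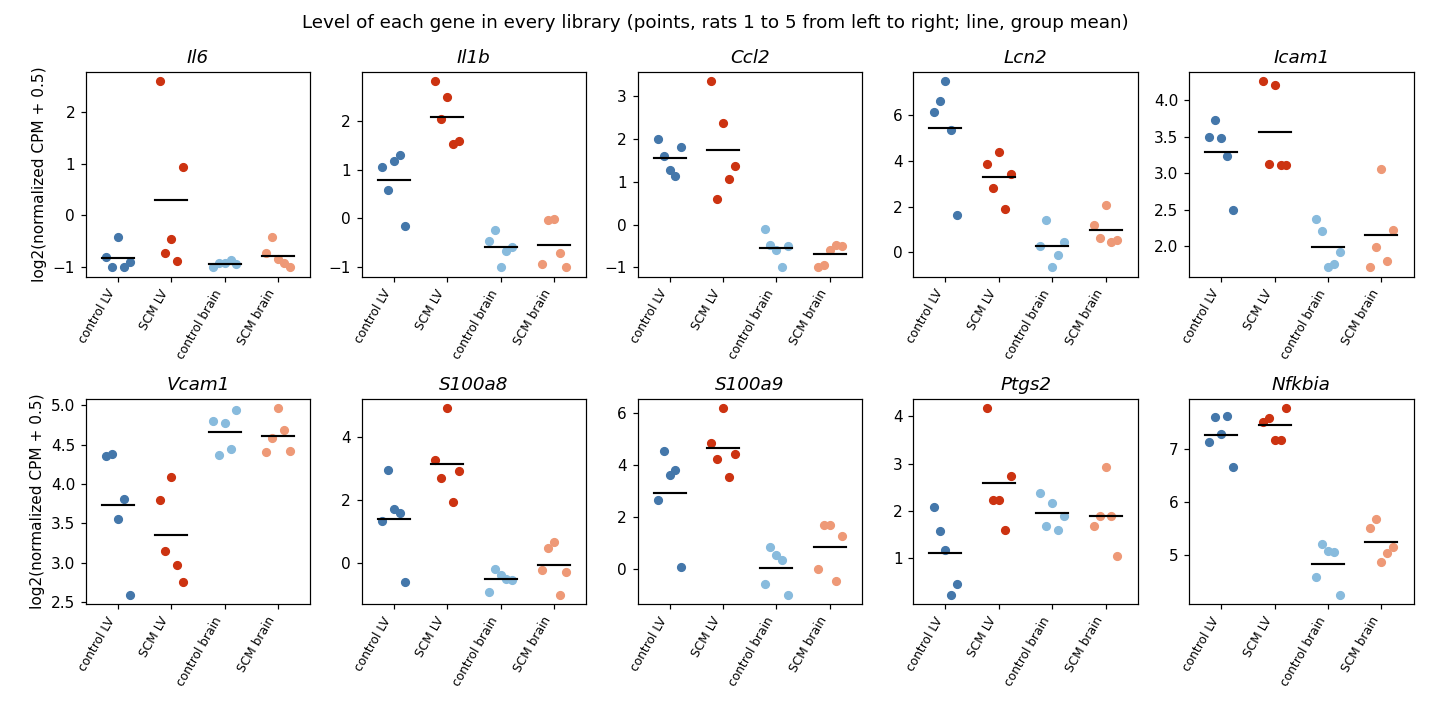
Level of each of the 10 genes in every library, as log2(CPM + 0.5) on the vertical axis, for the 4 groups on the horizontal axis; points are rats 1 to 5 from left to right and lines are group means. The SCM and control points of *Il1b* separate in the LV, and *Lcn2* is spread over the widest range in the control LV.

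In the LV, the question was whether the SCM rats differ from the control rats. None of the genes passed the test at an adjusted p-value under 0.05 (edgeR quasi-likelihood test, Benjamini-Hochberg over 13954 genes), whereas 5.21% of all genes did. Of the 9 genes with enough counts to test, 7 had a positive and 2 a negative log2 fold change, with a median of 0.62. Without SCM rat 1 there were 6 positive and 3 negative, with a median of 0.17. The median was 0.32 with the replicate number as a block and 0.33 with limma-voom. At an unadjusted p-value under 0.05, 5 of the 9 would have passed, 4 of them higher (*Ptgs2*, *Il1b*, *S100a8*, *S100a9*) and 1 lower (*Lcn2*), against 23.2% of all genes (10.9% higher and 12.3% lower). Without SCM rat 3 this was 3 of 9, 2 of them higher, against 3518 of 14102 genes. *S100a8* and *S100a9* were the genes that dropped out. With the study's further limit of an absolute log2 fold change over 2, the count was also 0, against 0.229%. The outcome depends on the tool. DESeq2 called 4 of 10 genes, *Ptgs2*, *Il1b* and *Il6* as higher and *Lcn2* as lower, with 9.79% of all genes called, and limma-voom called 0, with 4.71% of all genes called. At an unadjusted p-value under 0.05 limma-voom gave 4 of the 9, against 23.1% of all genes.

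*Il1b* was the only one of the 9 tested genes whose groups did not overlap in the LV. Control rats 1 to 5 had 1.58, 0.994, 1.75, 1.96 and 0.397 CPM. The SCM rats had 6.49, 3.61, 5.08, 2.35 and 2.49 CPM. Every SCM library lay above every control library, a pattern found with SCM higher in 3.12% of all genes and in either direction in 7.53%. The means were 1.34 ± 0.636 and 4.01 ± 1.77 CPM (SD, n = 5), a ratio of 3.00. By edgeR the log2 fold change was 1.60 ± 0.43 (standard error, SE) and the adjusted p-value 0.0509, just outside the threshold. Without control rat 5 it was 1.37 with an edgeR adjusted p-value of 0.0443, and DESeq2 gave 1.61 with an adjusted p-value of 0.0033. Several other fits did not pass. The adjusted p-value was 0.0598 with limma-voom, and by edgeR it was 0.0619 with the replicate block, 0.127 in 1 fit of all 20 libraries and 0.110 without SCM rat 1, where the log2 fold change was 1.36. Groups that do not overlap fix the exact two-sided permutation p of a single gene at 0.00794, the smallest that 5 against 5 libraries allow, so this value adds nothing to the separation itself. That test, here and for the genes below, was added after seeing the data.

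*Il6* was too low to judge in both tissues. Its counts in the control LV were 2, 0, 6, 0 and 1, and in the SCM LV they were 101, 2, 6, 1 and 28. SCM rats 1 and 5 therefore carried nearly all *Il6* reads of the LV, at 5.51 and 1.42 CPM, while the other 3 SCM libraries lay within the range of the controls. The filter on low counts removed the gene. DESeq2, which kept it, gave a log2 fold change of 4.38 with an adjusted p-value of 0.00608, edgeR without a filter gave 4.25 with 0.0884, and the exact permutation p-value was 0.0873. In the brain no library exceeded 11 counts of *Il6*.

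*Ccl2* did not pass the test between the LV groups. The control rats had 3.48, 2.53, 1.91, 1.71 and 3.02 CPM. The SCM rats had 9.71, 1.02, 4.69, 1.60 and 2.08 CPM. Of these, 2 SCM libraries exceeded every control and 2 fell below every control, so the SCM values lay on both sides of the controls. The log2 fold change of 0.62 (SE 0.53, edgeR adjusted p-value 0.519) turned to -0.08 when SCM rat 1 was left out, and it was 0.16 with limma-voom and 0.23 with the replicate block.

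The neutrophil genes *S100a8* and *S100a9* followed each other closely. For *S100a8*, the control LV had 2.01, 7.27, 2.79, 2.51 and 0.159 CPM and the SCM LV had 9.22, 6.00, 29.8, 3.36 and 7.10 CPM. All 5 SCM values lay above the control median of 2.51, and 2 lay above every control. For *S100a9*, the control LV had 5.77, 22.5, 11.7, 13.6 and 0.556 CPM and the SCM LV had 28.6, 18.3, 72.0, 11.2 and 21.0 CPM. Control rat 5 was the lowest and SCM rat 3 the highest for both genes. The log2 fold changes were 1.94 for *S100a8* (SE 0.73, edgeR adjusted p-value 0.137) and 1.50 for *S100a9* (SE 0.69, edgeR adjusted p-value 0.215). Without SCM rat 3 they were 1.16 and 0.90, without control rat 5 they were 1.63 and 1.19, and without control rat 2 they were 2.60 and 1.96. Neither gene passed the adjusted edgeR test in any of these fits. The exact permutation p-value of the single gene was 0.0397 for *S100a8* and 0.0794 for *S100a9*, both unadjusted.

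*Lcn2* and *Vcam1* were the 2 tested genes with a negative log2 fold change in the LV, and the difference in *Lcn2* was by far the wider. Control rats 1 to 5 had 69.0, 97.7, 176, 39.8 and 2.58 CPM. The SCM rats had 13.8, 6.51, 20.5, 3.24 and 10.4 CPM. In controls, 4 libraries lay above every SCM library, and the remaining one, control rat 5, lay below all of them. The means were 77.0 ± 65.6 and 10.9 ± 6.70 CPM (SD, n = 5). This gave a log2 fold change of -2.80 ± 0.78 (SE, edgeR adjusted p-value 0.0604). Without control rat 5 it was -3.11 ± 0.51 (SE, edgeR adjusted p-value 0.00715), in a fit that called 7.07% of all genes. DESeq2 on all libraries gave -2.79 with an adjusted p-value of 0.0167, and 1 edgeR fit of all 20 libraries gave -2.82 with 0.0147. Limma-voom gave -2.15 with an adjusted p-value of 0.337, and edgeR gave -2.48 with 0.135 under the replicate block and -2.24 with 0.141 without control rat 3. The exact permutation p-value was 0.0952. Why control rat 5 differs was not tested.

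The adhesion genes showed small differences of opposite sign. *Icam1* had 10.8, 12.7, 10.6, 8.94 and 5.12 CPM in the control LV and 18.7, 8.24, 18.0, 8.11 and 8.12 CPM in the SCM LV. SCM rats 1 and 3 exceeded every control, and the other 3 SCM rats lay below 4 of the 5 controls. *Vcam1* had 19.98, 20.2, 11.3, 13.5 and 5.56 CPM in the control LV and 13.4, 8.39, 16.6, 7.36 and 6.24 CPM in the SCM LV, with the groups overlapping throughout. The log2 fold change was 0.36 for *Icam1* (SE 0.31, edgeR adjusted p-value 0.516) and -0.42 for *Vcam1* (SE 0.35, edgeR adjusted p-value 0.51). The value for *Icam1* was 0.16 without SCM rat 1, 0.19 without SCM rat 3 and 0.20 without control rat 5. That for *Vcam1* was -0.27 without control rat 1, -0.25 without control rat 2, -0.62 without control rat 5 and -0.64 without SCM rat 3, and none of these passed.

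*Ptgs2* had 3.73, 2.48, 1.75, 0.668 and 0.873 CPM in the control LV and 17.5, 4.17, 4.18, 2.52 and 6.14 CPM in the SCM LV. Among the SCM libraries, 4 of 5 lay above every control, and SCM rat 4 lay within the control range. The mean was 1.90 ± 1.25 CPM in controls and 6.91 ± 6.07 CPM in SCM rats (SD, n = 5). By edgeR the log2 fold change was 1.88 ± 0.58 (SE, adjusted p-value 0.0775), and the exact permutation p-value was 0.0159. SCM rat 1 contributed much of its size, since the log2 fold change was 1.19 without this rat. DESeq2 gave 1.90 with an adjusted p-value of 0.00631. Limma-voom gave 1.70 with an adjusted p-value of 0.126. By edgeR the adjusted p-value was 0.185 without SCM rat 1, 0.0385 with the replicate block and 0.0270 in 1 fit of all 20 libraries.

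*Nfkbia* was the most evenly expressed gene of the set in the LV. The control rats had 139, 195, 156, 197 and 101 CPM. The SCM rats had 183, 192, 144, 145 and 218 CPM, and only 1 of them lay above every control. Its log2 fold change in the LV was 0.18 ± 0.19 (SE, edgeR adjusted p-value 0.595). It was 0.27 without control rat 2, 0.28 without control rat 4, 0.056 without control rat 5 and 0.091 without SCM rat 5, none of which passed.

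**Figure D2:**
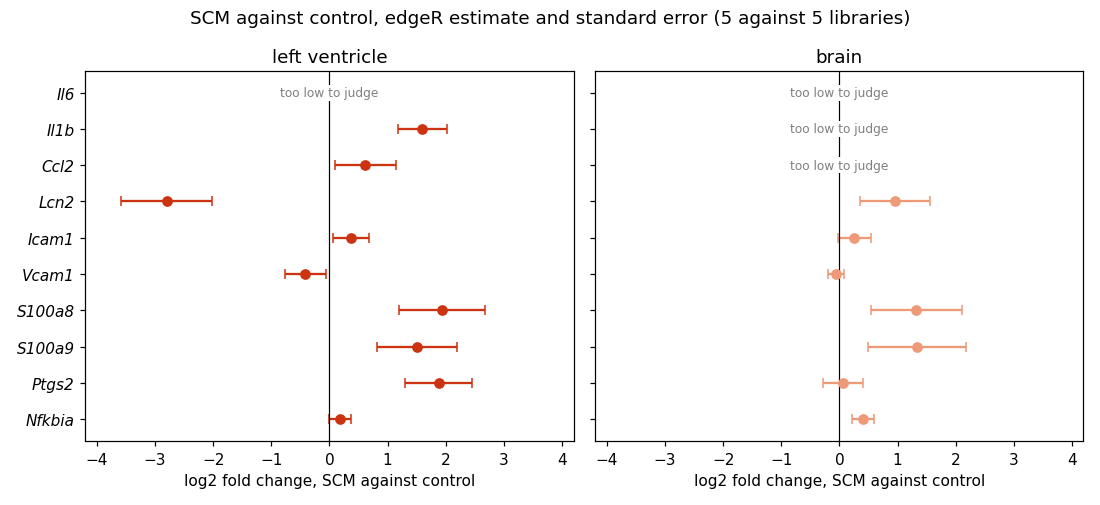
Log2 fold change of SCM against control for each gene on the horizontal axis, in the LV (left) and brain (right), with points as edgeR estimates and bars as 1 standard error from 5 against 5 libraries. In the LV, *Il1b*, *S100a8*, *S100a9* and *Ptgs2* lie between 1.50 and 1.94 and *Lcn2* at -2.80, and none of the estimates in either tissue passed the adjusted test.

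In the brain, the same comparison gave no gene of the set at an adjusted p-value under 0.05 by edgeR, and 0 of the 7 tested genes at an unadjusted p-value under 0.05, where all genes gave 0.175% and 14.3%. DESeq2 also called 0, while it called 2.28% of all genes. At an unadjusted p-value under 0.05 DESeq2 gave 1 gene, *Nfkbia*, against 11.7% of all genes. At this limit *Nfkbia* was also the 1 gene with limma-voom (2348 of all 16002 genes) and with the replicate block (1842 of 16002). Without control rat 2 edgeR gave 2, *Nfkbia* and *Lcn2* (1960 of 16144 genes). Without SCM rat 4 it gave 2, *Nfkbia* and *S100a8* (2340 of 16165 genes). *Il6*, *Il1b* and *Ccl2* were too low to judge. *Il1b* had 8, 13, 0, 5 and 7 counts in the control brain and 1, 21, 18, 4 and 0 in the SCM brain. *Ccl2* had 15, 8, 6, 0 and 9 counts in controls and 0, 1, 6, 8 and 6 in SCM rats. No tested gene had groups that did not overlap, a pattern found in 4.01% of all genes. Without the filter, edgeR gave log2 fold changes of 1.66 for *Il6* (SE 1.01, adjusted p-value 0.501), 0.37 for *Il1b* (SE 0.96, adjusted p-value 0.884) and -0.74 for *Ccl2* (SE 0.94, adjusted p-value 0.736), so the errors were wide and none passed.

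*S100a9* had 0.170, 1.30, 0.937, 0.766 and 0 CPM in the control brain and 0.502, 2.71, 2.71, 0.217 and 1.88 CPM in the SCM brain. Of the SCM libraries, 3 exceeded every control. *S100a8* ranged from 0.0283 to 0.372 CPM in the control brain and from 0 to 1.11 CPM in the SCM brain, with 2 libraries above every control and 1 library with no count. The log2 fold changes were 1.34 for *S100a9* (SE 0.84, edgeR adjusted p-value 0.476) and 1.32 for *S100a8* (SE 0.78, edgeR adjusted p-value 0.448). Limma-voom gave 2.003 for *S100a9* and 0.625 for *S100a8* (adjusted p-values 0.437 and 0.815). The errors were wide at these low levels, and neither gene passed.

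*Lcn2* in the brain had 0.708, 2.13, 0.138, 0.422 and 0.891 CPM in controls and 1.82, 1.05, 3.65, 0.870 and 0.977 CPM in SCM rats. All 5 SCM values lay above the control median, and 1 lay above every control. With all libraries the log2 fold change was 0.96 ± 0.60 (SE, edgeR adjusted p-value 0.475), and it was 0.45 without SCM rat 3 and 1.62 without control rat 2 (edgeR adjusted p-value 0.321).

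*Nfkbia* had 23.4, 36.3, 33.1, 33.0 and 18.6 CPM in the control brain and 45.0, 50.7, 28.6, 32.2 and 35.2 CPM in the SCM brain. SCM rats 1 and 2 exceeded every control. Its log2 fold change of 0.40 (SE 0.19, edgeR adjusted p-value 0.364) had the smallest unadjusted p-value of the set in the brain, 0.0579. *Icam1* ranged from 2.78 to 4.67 CPM in controls and from 2.77 to 7.86 CPM in SCM rats (log2 fold change 0.26, standard error 0.29, edgeR adjusted p-value 0.704), and its value was 0.16 with limma-voom or the replicate block and turned to -0.09 without SCM rat 3. *Vcam1* was steady, from 20.2 to 30.0 CPM in controls and from 20.7 to 30.6 CPM in SCM rats, and SCM differed from control by -0.06 ± 0.14 (SE) on the log2 scale. *Ptgs2* had means of 3.43 ± 0.923 and 3.57 ± 2.11 CPM (SD, n = 5), and a log2 fold change of 0.06 ± 0.34 (SE).

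Whether the stress effect differed between the LV and the brain was tested directly as a tissue by condition interaction, with the rat as a block. None of the 9 tested genes passed by edgeR, against 0.754% of all genes, and at an unadjusted p-value under 0.05 there were 2 of 9 (*Lcn2* and *Ptgs2*), against 13.9%. Without SCM rat 1 this was 1, *Lcn2* (1982 of 16861 genes). Without control rat 5 it was 3, with *Vcam1* added (2568 of 16812 genes). Without SCM rat 5 the 2 genes were *Lcn2* and *Nfkbia* (2054 of 16894 genes). For *Lcn2* the difference of log2 fold changes, LV minus brain, was -3.29 ± 0.99 (SE, edgeR adjusted p-value 0.162). Without control rat 5 it was -4.15 with an edgeR adjusted p-value of 0.0141, in a fit that called 1.29% of all genes. For *Ptgs2* the difference was 1.80 ± 0.69 (SE, edgeR adjusted p-value 0.259). For *S100a9* it was 0.15 ± 0.64 (SE), with values from -0.19 without SCM rat 1 to 0.64 without SCM rat 2. For *Nfkbia* it was -0.24 ± 0.14 (SE), with values from -0.34 without SCM rat 5 to -0.13 without SCM rat 2. None of these passed the adjusted edgeR test. *Il1b* and *Ccl2* entered this fit only through their LV counts.

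Levels in the 2 tissues of the control rats were compared within rats. All 9 tested genes differed by edgeR, 7 higher in the LV and 2 higher in the brain. Of all genes, 79.7% differed between these tissues, 37.1% higher and 42.6% lower in the LV. The count of genes that differed in either direction is thus close to what the tissues show in general. Their directions leaned more to the LV than those of all genes, but the filter bears on this. The filter asked for about 10 counts in at least 5 libraries. In the control brain, *Il1b* and *Ccl2* reached this in 1 library each, *S100a8* in 2, *S100a9* in 3 and *Lcn2* in 4, so that none of these 5 genes would have entered through the brain alone. They were selected largely by the tissue in which they are high, and their differences are a description and no support for a difference of the set. Over all genes the median log2 difference, LV minus brain, was -0.12 after TMM and -0.91 with library totals alone, and the direction of each of the 9 genes was the same under both scalings.

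*Lcn2* showed the widest gap, with a log2 difference of 6.03 ± 0.94 (SE), which was 5.26 without control rat 3 and 6.81 without control rat 5. The ratio of its mean level in the LV to that in the brain was 89.8 in control rats and 6.50 in SCM rats, and the control ratio was 50.4 without control rat 3. *Nfkbia* and *Icam1*, which reached the filter in every library of both tissues, were higher in the LV by 2.49 and 1.45 on the log2 scale (SE 0.08 and 0.22, edgeR adjusted p-values 7.75e-08 and 0.000453). With library totals alone these gaps were 1.69 and 0.65 (edgeR adjusted p-values 2.13e-07 and 0.028). On the same scale the gap was 4.26 for *S100a9*, 3.86 for *Ccl2*, 3.45 for *S100a8* (4.06 without control rat 5) and 2.94 for *Il1b*, all 4 among the genes selected largely through the LV. After TMM every rat, control or SCM, had more *Il1b*, *Ccl2*, *Lcn2*, *Icam1*, *S100a9* and *Nfkbia* in its LV than in its brain. For *Icam1* in control rat 5 this rests on TMM. Its LV had 129 counts in a total of 31158110 and its brain 140 in 30912557, the reverse order by library totals.

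*Vcam1* and *Ptgs2* were the 2 genes with more RNA in the control brain. The log2 difference was -0.89 for *Vcam1* (SE 0.32, edgeR adjusted p-value 0.0328) and -1.02 for *Ptgs2* (SE 0.36, edgeR adjusted p-value 0.0286). With library totals alone they were -1.69 and -1.81 (edgeR adjusted p-values 0.00124 and 0.00157). After TMM both lie nearer to the threshold, and leaving out control rat 3 ended both calls, with edgeR adjusted p-values of 0.0976 for *Vcam1* and 0.0778 for *Ptgs2*. Without control rat 5 *Vcam1* was -0.56 and still passed (edgeR adjusted p-value 0.0298). The *Ptgs2* call also ended without control rat 4 (edgeR adjusted p-value 0.0796), without control rat 5 (0.0726) and without the rat as a block (0.0926). In control rats *Ptgs2* was lower in the LV than in the brain of the same animal in 5 of 5 rats. In SCM rats it was higher in the LV in 3 of 5 after TMM. On that scale the ratio of the LV mean to the brain mean was 0.554 in controls and 1.94 in SCM rats, or 1.13 without SCM rat 1. The LV of SCM rat 2 had 82 counts of *Ptgs2* in a total of 28163377, and its brain had 140 in 35988591. By library totals alone *Ptgs2* was therefore lower in the LV of this rat, and the ratios were not recomputed on that scale.

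The order of the 4 group means, from lowest to highest, was control brain, SCM brain, control LV and SCM LV for *Il1b*, *Icam1*, *S100a8*, *S100a9* and *Nfkbia*. In these 5 genes the 2 brain groups overlapped, and the SCM brain and control LV overlapped in all but *Nfkbia*. The 2 LV groups overlapped as well, except in *Il1b*. For *Ccl2* the order of the brain groups was the other way round, with the brain groups overlapping each other but not the LV. For *Lcn2* the control LV was highest and the SCM LV next, and each neighbouring pair overlapped. For *Vcam1* both LV means lay below both brain means, and the control LV and SCM brain did not overlap. For *Ptgs2* the control LV was lowest and the SCM LV highest, with the brain groups between them and the ranges of neighbouring groups overlapping.

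The rats differed widely in most of these genes. The SD of log2(CPM + 0.5) within the LV groups was 1.74 for *Lcn2*, higher than in 99.9% of the 13954 tested genes, and 1.41 for *S100a9* and 1.20 for *S100a8*, compared with a median of 0.249 over all genes. Control rat 5 carried much of this, since without it the SD was 0.933 for *Lcn2* and 0.897 for *S100a9*. With all rats it was 0.877 for *Ptgs2*, 0.821 for *Ccl2*, 0.653 for *Vcam1*, 0.578 for *Il1b* and 0.550 for *Icam1*. *Nfkbia* was the exception, at 0.337. In the brain, the SD was highest for *S100a9*, at 0.900, and lowest for *Vcam1*, at 0.234, where the median of all genes was 0.198.

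Single animals were extreme in many of the genes at once. Control rat 5 had the lowest control LV value in 7 of the 9 genes (*Il1b*, *Lcn2*, *Icam1*, *Vcam1*, *S100a8*, *S100a9* and *Nfkbia*), while this library was lowest of its group in 26.8% and highest in 30.1% of all genes. SCM rat 1 was highest in the LV for *Il1b*, *Ccl2*, *Icam1* and *Ptgs2*, against 24.0% of all genes, and it also had the most *Il6* counts. SCM rat 3 was highest in the LV for *Lcn2*, *Vcam1*, *S100a8* and *S100a9*, against 22.6% of all genes, and its brain was highest of the SCM brains in 6 of 7 genes, all but *Nfkbia*, against 21.3% of all genes. SCM rat 4 was the lowest of the SCM LV in 6 of 9 genes, against 15.9% of all genes.

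**Figure D3:**
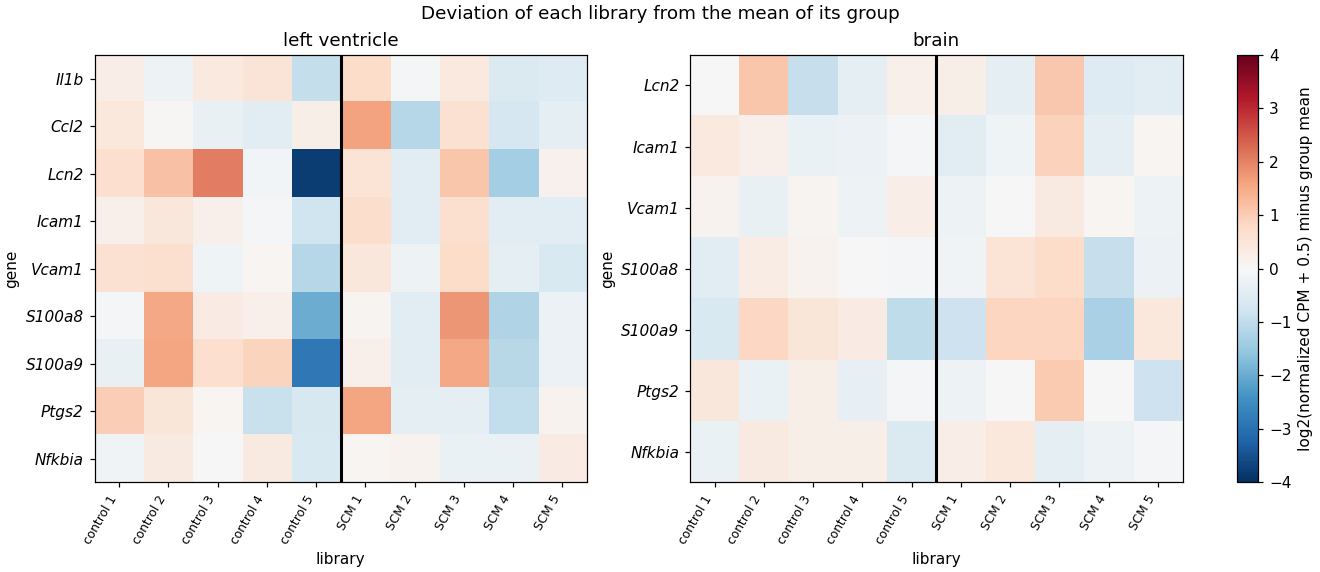
Deviation of every library from the mean of its own group, in log2(CPM + 0.5), for the genes tested in the LV (left) and brain (right); columns are rats, the black line parts control from SCM, red is above and blue below the group mean. The column of control rat 5 is blue in 8 of the 9 LV genes, and that of SCM rat 3 is red in most genes of both tissues.

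Covariation between rats was measured after removing the group means, over the 10 libraries of a tissue. In all, 64 relations were tested, 36 in the LV, 21 in the brain and 7 between the tissues of the same rat, by two-sided permutation within groups with 100000 resamples. The pair *S100a8* and *S100a9* in the LV was the 1 relation that passed. It had a Pearson r of 0.959 (permutation p = 0.0002, adjusted p = 0.0128) and a Spearman rho of 0.964 (permutation p = 0.00028, adjusted p = 0.0179), and r was 0.948 without the 2 libraries farthest from the median. Among the 13953 other genes tested in the LV, *S100a9* ranked number 2 in likeness to *S100a8*. In the GRCr8 annotation these 2 genes are neighbours on chromosome 2, and in the brain the pair had an r of 0.803 (permutation p = 0.0118, adjusted p = 0.0707).

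Other pairs in the LV had high correlations that did not pass the adjustment. *Icam1* and *Vcam1* had an r of 0.905 (rho 0.903, permutation adjusted p = 0.0608), and r was 0.887 without the 2 farthest libraries. *Lcn2* and *S100a9* had an r of 0.886 (rho 0.782, permutation adjusted p = 0.0657), which was 0.535 without the 2 farthest libraries, so this relation rests on them. *Lcn2* and *S100a8* had an r of 0.837 (rho 0.867, permutation adjusted p = 0.0608), which was 0.563 without the 2 farthest libraries. *Icam1* and *S100a8* had an r of 0.837 (rho 0.806, permutation adjusted p = 0.0608). *Ptgs2* and *Nfkbia* showed no relation to the neutrophil genes that passed, with r between 0.263 and 0.639. In the brain, *Vcam1* had an r of 0.791 with *Ptgs2* (permutation adjusted p = 0.0704) and of -0.744 with *Nfkbia* (permutation adjusted p = 0.111), neither of which passed.

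**Figure D4:**
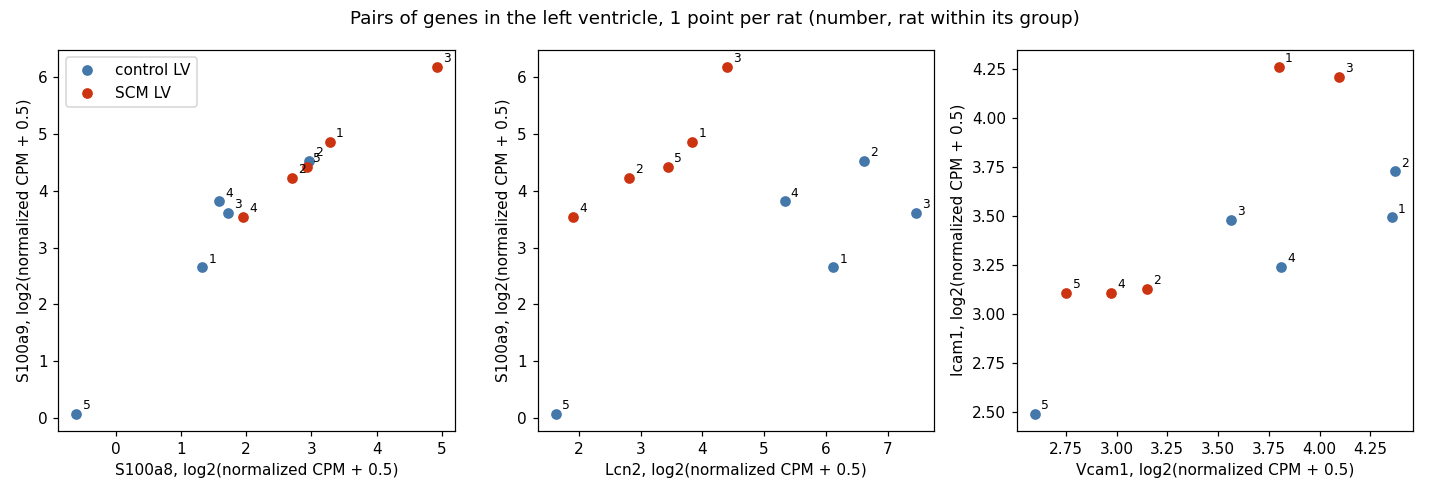
Levels of 3 pairs of genes in the LV as log2(CPM + 0.5) on both axes, 1 point per rat, blue for control and red for SCM, with the number of the rat within its group. *S100a8* and *S100a9* lie along 1 line in both groups (r = 0.959 after removing group means), whereas in the plot of *Lcn2* and *S100a9* the control rats other than rat 5 lie to the right of the SCM rats.

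Between the LV and the brain of the same rat, *Nfkbia* had an r of 0.815 (rho 0.733, permutation p = 0.0132, adjusted p = 0.0707) and *S100a9* an r of 0.705 (rho 0.624, permutation p = 0.0124, adjusted p = 0.0707), neither past the adjusted threshold. Without the 2 farthest libraries these were 0.589 and 0.593. *S100a8* had an r of 0.582 (rho 0.576, permutation adjusted p = 0.201), which was 0.587 without the 2 farthest libraries. *Icam1* had an r of 0.352 (rho 0.164, permutation adjusted p = 0.604), which was 0.714 without the 2 farthest libraries. For *Lcn2*, *Ptgs2* and *Vcam1* the corresponding r was 0.0876, -0.0438 and -0.148. This family of 7 relations was added after seeing the data.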

How the data were processed

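Gene counts of 20 libraries (LV and brain of 5 control and 5 SCM rats) were deposited by the authors as raw read counts, without normalization and with 1 column per library. The submitters' processing notes name HISAT2, StringTie and SAMtools and the mRatBN7.2 build, with no versions, and strandedness is not given in the sources used here, so reads of overlapping genes could have been split in unknown ways. Groups and replicate numbers were taken from the sample labels, and that LV and brain come from the same rats was taken from the labels and the paper.

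SCM was compared with control in each tissue with edgeR 4.0.16 in R 4.3.3 (TMM, filterByExpr with a minimum count of 10 and a minimum total of 15, quasi-likelihood test, Benjamini-Hochberg over all tested genes). The interaction and the comparison of control tissues used the rat as a block. Standard errors of log2 fold changes were derived from the F statistic. A gene removed by filterByExpr was called too low to judge in that tissue. Alternatives were RLE, upper-quartile and total-count scaling, DESeq2 1.42.0, limma 3.58.1 with voom, a joint fit of every library, other filters on low counts, the replicate number as a block and leaving out each rat. The exact permutation test of single genes, the relations between tissues, and the spreads and tissue ratios without each rat were added after seeing the data. The study's further limit, an absolute log2 fold change over 2, was applied as an alternative call. Levels are log2(CPM + 0.5), with CPM scaled over all 20 libraries. Levels of different genes were not compared, because transcript lengths were not used here. The fits were tested on simulated data. Replicate libraries differed by at least 11.6 times the sampling variance, so none was counted as a duplicate. No batches are given in the sources used here.

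All 10 genes are named, and the genes and lists were chosen with earlier results of these data known. Pathway and marker lists could not be applied, because identifiers were not paired with symbols. Genes most like a member were to be named only for members that passed the test of SCM against control, and there were 0 of these. Upstream sequences are those of RefSeq (GRCr8).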

Additional observations from a re-analysis of the deposited data

Results flagged for a closer look

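In 4 of 32 groups of 5 libraries, a single library stood apart from the others by Dixon's test of the CPM values at the 95% level, where chance alone would flag about 1 in 20 groups, or 1.6 here. *Ptgs2* in the LV of SCM rat 1 was 17.5 CPM, while the other 4 SCM libraries had 2.52 to 6.14. *S100a8* in the LV of SCM rat 3 was 29.8 CPM against 3.36 to 9.22 in the others, and *S100a9* in the same library was 72.0 CPM against 11.2 to 28.6. *Icam1* in the brain of SCM rat 3 was 7.86 CPM against 2.77 to 4.15. All 4 values are the highest of SCM groups, and 3 of them come from SCM rat 3. On the log2(CPM + 0.5) scale, tried after seeing the data, 0 of the 32 groups held such a library, so these 4 depend on the scale. The cause was not tested.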

How the results depend on the processing

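In the LV, 0 genes of the set passed by edgeR, and this count was 1 with at least 10 counts required in every library (*Il1b*, in a fit that called 6.23% of all genes), 1 with the replicate block (*Ptgs2*, log2 fold change 1.80, adjusted p-value 0.0385, 2.25% of all genes), 2 in 1 fit of all 20 libraries (*Ptgs2* and *Lcn2*, 10.7%) and 4 with DESeq2 (9.79%). It ranged from 0 to 2 when a rat was left out, with 2 only without control rat 5 (*Il1b* and *Lcn2*, 7.07%). It was 0 with RLE or upper-quartile scaling, limma-voom, no filter on low counts, and the added limit on the fold change. In the brain, the count was 0 in every alternative run and ranged from 0 to 0 when a rat was left out. For the interaction, the count ranged from 0 to 1 when a rat was left out, with *Lcn2* called without control rat 5. For the control tissues, the count was 9 and ranged from 7 to 9 when a rat was left out, 8 without the rat as a block, and 4 of 4 genes tested with at least 10 counts in every library, where fewer genes could be tested.

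Same-numbered control and SCM rats are different animals, and their deviations from the group means had correlations from -0.0750 to 0.152 in the LV and from -0.233 to 0.143 in the brain. Only 2 of 5 numbers in the LV and 1 of 5 in the brain correlated best with their own number, so the numbers do not pair the rats. The replicate block changed no call of the set other than that of *Ptgs2* in the LV.

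Of the values for single genes under the alternatives fitted across all genes, 479 kept their direction and their side of the threshold, 10 passed it newly, 5 lost it and 13 changed sign. The exact permutation test of single genes was set against the unadjusted edgeR p-value, both at 0.05, and here 13 kept both, 2 lost it (*S100a9* and *Lcn2* in the LV) and 1 changed sign. No value that changed sign had passed a test. In the brain, *Ptgs2* was -0.0452 with limma-voom, -0.0701 with the replicate block and -0.0553 as the difference of mean log2 levels, and it ranged from -0.36 to 0.24 when a rat was left out (negative without control rats 2 and 4 or SCM rat 3). There, *Icam1* ranged from -0.0919 to 0.38 (negative without SCM rat 3) and *Vcam1* from -0.16 to 0.00996 (positive without control rat 5). In the LV, *Ccl2* ranged from -0.0785 to 0.86 (negative without SCM rat 1). In the interaction, *Icam1* ranged from -0.20 to 0.24 (negative without control rat 5 or SCM rat 1) and *S100a9* from -0.19 to 0.64 (negative without control rat 3, SCM rat 1 or SCM rat 4). The causes were not tested. The count of relations between rats that passed was 1 at a pseudocount of 0.5, and also at 0.1, at 2 and with RLE scaling. Low counts limit *Il6* in both tissues and *Il1b* and *Ccl2* in the brain, each of which had libraries at or below 3 counts. *S100a8* and *S100a9* in the brain also had libraries at or below 3 counts, although both passed the filter there. Whether deeper sequencing would change these values was not tested.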
